A study of Homo sapiens with 12 samples.

Results

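The transcripts of 9 receptors that guide B cells into and within lymphoid tissue were followed across 2 established human neoplastic B-cell lines, MEC1 and JVM2. The receptors were picked by gene symbol: *CCR7*, *CXCR5*, *CXCR4*, *CXCR3*, *CCR6*, *S1PR1*, *S1PR2*, *GPR183* and *P2RY8*. They took up 10 of the 22441 genes in the MEC1 table, where 2 identifiers carried the symbol *CCR6*, and 8 of the 17144 genes in the JVM2 table, and 23533 genes were listed in either table. *CCR6* was not analysed in JVM2. The cells differed in their level of UGT2B17, an enzyme that attaches glucuronic acid to steroids and other lipophilic molecules and so inactivates them.

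Each line was kept as a low-expressing (CTRL) and a high-expressing (2B17) population, with 3 libraries each. MEC1-CTRL cells carried a stable shRNA knock-down of *UGT2B17* and were grown with puromycin. MEC1-2B17 cells were given pcDNA6 with the open reading frame of *UGT2B17* and grown with blasticidin, so the MEC1 arms differed in construct and antibiotic as well as in *UGT2B17*. JVM2-CTRL cells carried the empty pcDNA6 vector and JVM2-2B17 cells the vector with *UGT2B17*, both under blasticidin. All 4 were stably selected populations, and whether they derived from single clones was not given in the sources used here.

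Homing of B cells runs on G protein-coupled receptors that sense gradients. CCR7 and CXCR5 read the chemokines of the lymph node T zone and of the follicle, CXCR4 reads CXCL12 of stroma and marrow, CXCR3 reads interferon-induced chemokines, and CCR6 reads CCL20 of epithelia and the subfollicular zone. S1PR1 reads sphingosine 1-phosphate and draws lymphocytes out into lymph and blood, S1PR2 and P2RY8 hold B cells near the centre of the follicle, and GPR183 (EBI2) follows oxysterols to the outer follicle. In chronic lymphocytic leukemia, movement between blood and the lymph node niche relies on the same receptors.

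The libraries held between 31762649 and 37744991 gene counts in MEC1 and between 8809179 and 11231330 in JVM2. Levels are in CPM, counts scaled to library size, on a scale shared by all 12 libraries. *UGT2B17* transcripts ranged from 9.77 to 11.1 CPM in MEC1-CTRL and from 18.9 to 21.3 CPM in MEC1-2B17, and from 27.7 to 31.4 CPM in JVM2-CTRL and from 37.6 to 48.0 CPM in JVM2-2B17. The arms differed by 1.92-fold in MEC1 and by 1.39-fold in JVM2. JVM2-CTRL stood above MEC1-2B17, so low and high expression hold within a line only. All 9 B-cell markers checked were present in every population, summing to between 3370 and 4600 CPM. MEC1-CTRL replicate 3 and JVM2-2B17 replicate 2 stood further from their partners than those did from each other, with a mean chi-square per gene of 6.74 to 8.44 against 2.51 in MEC1-CTRL, and of 8.23 to 8.39 against 2.22 in JVM2-2B17. The number of receptors changed stayed at 7 in MEC1 without the former and at 5 in JVM2 without the latter. JVM2-CTRL replicate 1 stood apart to a lesser degree, at 5.33 and 3.28 against 2.32, and without it 3 receptors changed in JVM2. The libraries were sequenced at 2 sites, and the site of each library was not given, so line, depth and site cannot be told apart in comparisons between the lines.

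On GRCh38 with GENCODE release 44, the receptors lie apart, with no more than 2 on any chromosome. *CCR7* (chr17:40553769-40565472), *CXCR4* (chr2:136114349-136119177), *CXCR3* (chrX:71615916-71618511), *GPR183* (chr13:99294539-99307399), *S1PR2* (chr19:10221433-10231331) and *P2RY8* (chrX:1462581-1537185) are on the minus strand. *CXCR5* (chr11:118883892-118897787), *S1PR1* (chr1:101236865-101243713) and *CCR6* (chr6:167111807-167139141) are on the plus strand. *P2RY8* lies in the pseudoautosomal region at the end of chromosome X, and *GPR183* lies inside *UBAC2*, on the other strand, with no shared exon bases. Exons of *CXCR5* share 91.1% of their bases with *BCL9L* on the opposite strand. The symbol *CCR6* also stands for ENSG00000272980, a gene that spans *CCR6* and its neighbour *CEP43* (*FGFR1OP* in the deposited tables) and that covers 85.2% of the exon bases of *CCR6*. Whether the counting used strand was not given in the sources used here, and values of *CXCR5* and of both *CCR6* genes are uncertain for that reason.

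Start-site windows from RefSeq (250 bases before and 50 after the start, GRCh38.p14) were found for 8 of the 9 receptors. The 4 below are shown because *S1PR1* and *GPR183* moved in opposite directions in the lines, *P2RY8* fell in both, and *CXCR4* was measured well in MEC1 and barely in JVM2. They are *S1PR1* chr1:101236769-101237068 on the plus strand, and, on the minus strand, *GPR183* chr13:99307350-99307649, *P2RY8* chrX:1537136-1537435 and *CXCR4* chr2:136118100-136118399. They are 1 of 2 windows for *P2RY8* and 1 of 3 for *CXCR4*. Capitals mark matches, on either strand, to CACCC (the box bound by KLF factors), GTAAACA (forkhead), the NF-kB site, ATGCAAAT (the octamer of OCT2) or TGACG (the core of the cAMP response element).
S1PR1: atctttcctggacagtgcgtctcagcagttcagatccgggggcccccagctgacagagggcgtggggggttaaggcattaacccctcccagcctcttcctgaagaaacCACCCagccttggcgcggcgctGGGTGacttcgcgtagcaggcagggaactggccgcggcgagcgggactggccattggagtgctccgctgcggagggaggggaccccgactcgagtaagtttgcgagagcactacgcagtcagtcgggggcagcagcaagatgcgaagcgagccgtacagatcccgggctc
GPR183: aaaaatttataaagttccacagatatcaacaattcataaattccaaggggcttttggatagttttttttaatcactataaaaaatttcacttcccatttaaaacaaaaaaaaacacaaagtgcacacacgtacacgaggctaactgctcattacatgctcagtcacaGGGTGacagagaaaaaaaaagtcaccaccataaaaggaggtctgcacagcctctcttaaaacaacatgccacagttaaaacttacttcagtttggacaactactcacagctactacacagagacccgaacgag
P2RY8: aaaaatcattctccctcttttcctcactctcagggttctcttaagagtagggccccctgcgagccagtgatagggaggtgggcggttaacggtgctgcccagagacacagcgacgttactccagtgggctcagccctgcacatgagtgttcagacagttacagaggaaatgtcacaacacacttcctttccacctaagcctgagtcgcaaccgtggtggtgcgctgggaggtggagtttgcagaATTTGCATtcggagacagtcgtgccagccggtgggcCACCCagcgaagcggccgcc
CXCR4: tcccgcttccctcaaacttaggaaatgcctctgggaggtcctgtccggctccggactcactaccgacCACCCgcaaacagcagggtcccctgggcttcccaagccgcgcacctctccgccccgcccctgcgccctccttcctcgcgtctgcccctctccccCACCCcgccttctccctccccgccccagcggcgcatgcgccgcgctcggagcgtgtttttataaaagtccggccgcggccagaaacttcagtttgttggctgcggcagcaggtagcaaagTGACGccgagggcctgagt
The *S1PR1* window held CACCC at position -142 from the start and, on the opposite strand, at -120, and the *GPR183* window held it on the opposite strand at -83. The *P2RY8* window held an octamer on the opposite strand at -6 and CACCC at 30, while its other window (chrX:1494331-1494630) held no match, and the *CXCR4* window held CACCC at 2 places and TGACG at position 31. Over all 35093 RefSeq windows of this length, 59.9% held CACCC, 3.42% GTAAACA, 0.559% the NF-kB site, 1.77% ATGCAAAT and 24.5% TGACG. A match describes the letters of the window and not the binding of a factor.

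Per length of merged exons, *GPR183* was the most abundant receptor in MEC1-CTRL, with 144 ± 7.85 CPM per kilobase (SD, *n* = 3). It was followed by *P2RY8* (20.6 ± 0.5) and *CCR7* (19.6 ± 0.674), whose ranges of mean ± SD overlapped. *CXCR4* (6.44 ± 0.684), *CXCR3* (5.85 ± 0.855) and *S1PR1* (4.99 ± 0.131) formed a middle group in which the ranges of neighbours also overlapped, and *S1PR2* stood at 2.47 ± 0.134. *CXCR5* (0.121 ± 0.0435) and *CCR6* (0.0789 ± 0.0222) were lowest, with overlapping ranges. In MEC1-2B17, *GPR183* stayed highest at 111 ± 1.41 CPM per kilobase, *CCR7* (24.7 ± 1.2) stood above *P2RY8* (11.1 ± 0.0934), and *CXCR3* (2.38 ± 0.199) ranked below *S1PR1* (3.14 ± 0.24), its range overlapping that of *S1PR2* (2.58 ± 0.244).

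In JVM2-CTRL, *CCR7* (81.8 ± 4.39 CPM per kilobase) and *GPR183* (74.8 ± 2.75) headed the order, and their ranges of mean ± SD overlapped. *P2RY8* (40.8 ± 2.38), *S1PR1* (12.3 ± 0.578), *CXCR3* (10.1 ± 1.23), *CXCR5* (3.79 ± 0.34) and *S1PR2* (2.51 ± 0.307) followed, with no overlap of neighbouring ranges. *CXCR4* was last, at 0.132 ± 0.0333 CPM per kilobase. In JVM2-2B17, *GPR183* (114 ± 2.81) and *CCR7* (113 ± 16.2) again had overlapping ranges, as did *S1PR2* (2.59 ± 0.49) and *CXCR5* (2.02 ± 0.346), and *CXCR4* was again last at 0.0138 ± 0.0238. With the longest transcript in place of merged exons, 5 ranks changed in MEC1-CTRL and 2 in JVM2-2B17. *S1PR1* then stood at 9.38 CPM per kilobase in MEC1-CTRL, above *CXCR4*, and *CCR7* came first in JVM2-2B17.

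**Figure D1:**
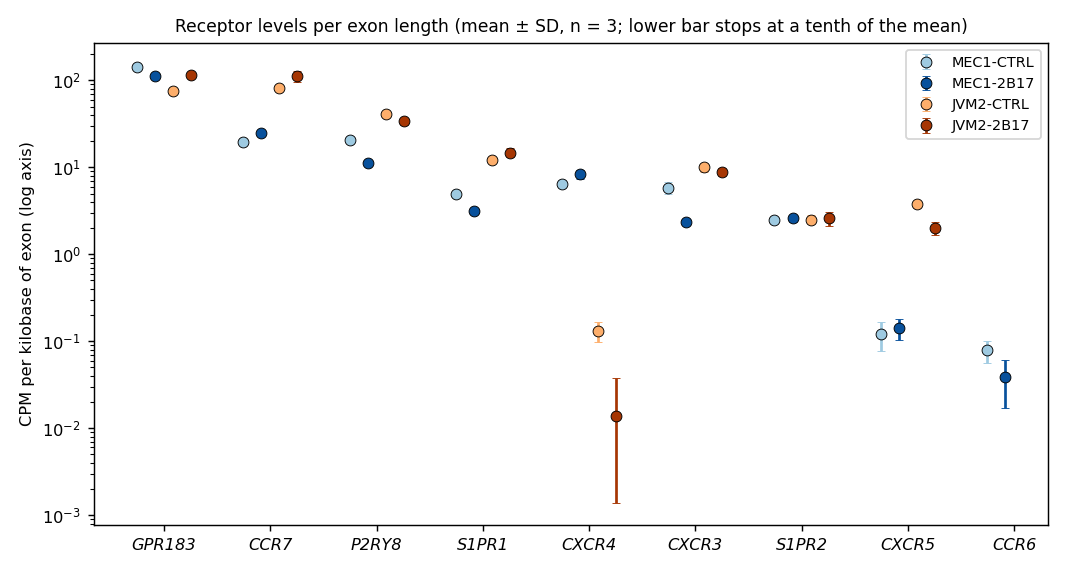
Receptor transcripts per exon length. Points are means of 3 libraries and bars the SD, in CPM per kilobase of merged exons on a log axis, for the 4 populations. *GPR183* stood at the top in MEC1, *GPR183* and *CCR7* together at the top in JVM2, and *CXCR4* at the bottom in JVM2.

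**Figure D2:**
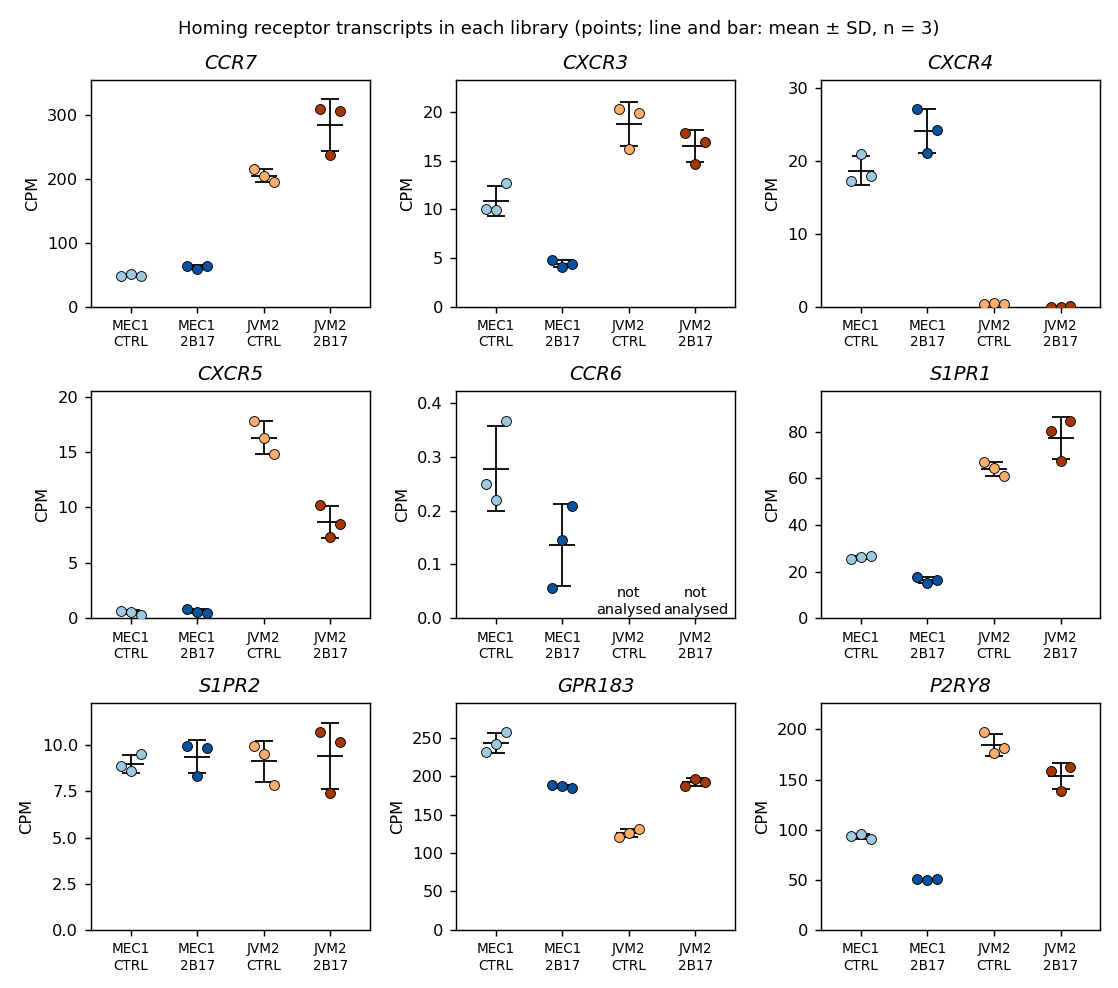
CPM of each receptor in each library (points), with mean and SD (n = 3) for the 4 populations, on linear axes from 0. Against their CTRL populations, *GPR183* and *S1PR1* were lower in MEC1-2B17 but higher in JVM2-2B17, with no overlap between arms, while *S1PR2* lay near 9 CPM throughout. For *S1PR1* in JVM2 the arms were only just apart.

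In MEC1, the comparison of 2B17 with CTRL cells asked which receptors change with high UGT2B17. Of the 9 receptor genes tested, 7 changed, 2 of them higher (*CCR7* and *CXCR4*) and 5 lower (*CXCR3*, *P2RY8*, *CCR6* as the spanning gene, *S1PR1* and *GPR183*). The largest fall was that of *CXCR3*, by 2.45-fold, and that of *P2RY8* came next, by 1.86-fold. Changes were frequent in this line: 41.7% of the 16581 genes tested changed (20.0% higher and 21.6% lower). The median log2 fold change was -0.38 over the receptor genes and 0.00 over all genes. In 7 receptor genes the arms did not overlap, against 50.3% of all genes tested. In bulk RNA, fewer cells that make a transcript and less transcript per cell cannot be told apart.

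Among the chemokine receptors of MEC1, *CXCR3* read 10, 9.93 and 12.7 CPM in the MEC1-CTRL libraries and 4.82, 4.08 and 4.4 CPM in MEC1-2B17. Every 2B17 library lay below every CTRL library, and the log2 fold change was -1.29 ± 0.108 (SE, edgeR quasi-likelihood test, adjusted *P* = 1.3e-08). Markers of NK cells, which also carry this receptor, were lower in sum in MEC1-2B17, though *NCR1* and *NKG7* were not. The 5 of 6 NK markers in the table summed to between 23.5 and 25.8 CPM in MEC1-CTRL and between 8.91 and 10.2 CPM in MEC1-2B17, the largest part being *GNLY* (18.5 and 4.65 CPM), while *NCAM1* was not listed. The 6 of 9 T-cell markers listed summed to between 18.8 and 19.1 CPM in MEC1-CTRL and between 12.8 and 13.5 CPM in MEC1-2B17, most of it *TRAC*, with *CD3E* at or under 0.116 CPM in every MEC1 library. *CD2* and *CD3G* were also lower in MEC1-2B17, but *CD247* (0.818 and 1.9 CPM), *CD8A* and *CD3E* were higher. The part of these genes in the change of *CXCR3* was not tested.

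*CCR7*, the receptor for the T-zone chemokines CCL19 and CCL21, read 48.5, 51.0 and 47.8 CPM in MEC1-CTRL and 63.8, 58.4 and 63.5 CPM in MEC1-2B17. All 3 MEC1-2B17 libraries were above the MEC1-CTRL libraries, by 1.26-fold (adjusted *P* = 7.9e-06, edgeR). *CXCR4* read 17.2, 20.9 and 17.9 CPM in MEC1-CTRL against 27.1, 21.1 and 24.3 CPM in MEC1-2B17. The arms came close without overlapping, at 20.9 and 21.1 CPM, and the rise of 1.3-fold passed the test (log2 fold change 0.38 ± 0.0828, SE, adjusted *P* = 0.0012, edgeR).

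*CXCR5*, the follicle receptor for CXCL13, was scarce in MEC1, with 27, 21 and 11 counts in MEC1-CTRL and 29, 18 and 17 counts in MEC1-2B17. The arms overlapped, and the 95% interval of the log2 fold change ran from -0.40 to 0.85 (adjusted *P* = 0.59, edgeR). *CCR6* itself had 10, 8 and 13 counts in MEC1-CTRL and 2, 5 and 7 counts in MEC1-2B17, too few to enter the test. The gene spanning *CCR6* and *CEP43* had 97, 103 and 91 counts against 48, 61 and 53 counts, which made -0.74 ± 0.151 on the log2 scale (SE, adjusted *P* = 0.00058, edgeR). *FGFR1OP*, whose exons the spanning gene shares, stood at -0.13 ± 0.0752 on the log2 scale, 2B17 over CTRL (SE, not past the test, adjusted *P* = 0.17, edgeR), and which of its 2 parts gave the counts of the spanning gene cannot be told apart here.

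*S1PR1* read 25.4, 26.1 and 26.7 CPM in MEC1-CTRL and 17.7, 15.2 and 16.2 CPM in MEC1-2B17. Every MEC1-2B17 library was lower, and the transcript fell by 0.67 on the log2 scale (SE 0.0605, adjusted *P* = 4e-08, edgeR). *S1PR2* read 8.88, 8.59 and 9.55 CPM in MEC1-CTRL and 9.94, 8.36 and 9.86 CPM in MEC1-2B17. Its arms overlapped, and the 95% interval of its log2 fold change ran from -0.12 to 0.24 (adjusted *P* = 0.61, edgeR).

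*GPR183* read 231, 242 and 257 CPM in MEC1-CTRL and 189, 187 and 185 CPM in MEC1-2B17. All MEC1-2B17 libraries were lower and lay close together, and the fall was 1.3-fold (log2 fold change -0.38 ± 0.0408, SE, adjusted *P* = 3.8e-07, edgeR). *P2RY8*, a receptor for S-geranylgeranyl-L-glutathione that keeps germinal centre B cells confined, read 93.7, 95.2 and 90.8 CPM in MEC1-CTRL and 50.3, 49.6 and 50.3 CPM in MEC1-2B17. The arms were far apart next to their spread, and the log2 fold change was -0.90 ± 0.0366 (SE, adjusted *P* = 7.1e-13, edgeR). Genes beside *P2RY8* moved the same way in MEC1. Of the 16 other pseudoautosomal genes tested there, 12 fell and 1 rose, with a median log2 fold change of -0.37. Among them *CD99* changed by -0.95 ± 0.0347 and *ASMTL*, the next gene, by -0.56 ± 0.0624 (log2, SE). These genes were looked at after the values of *P2RY8* were known, and their part in its fall was not tested.

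In JVM2, the same comparison was made between arms that shared vector and antibiotic. Of 7 receptor genes tested, 5 changed, 3 higher (*GPR183*, *CCR7* and *S1PR1*) and 2 lower (*CXCR5* and *P2RY8*). *CXCR5* fell most, by 1.87-fold, and *GPR183* rose most, by 1.52-fold. Of the 13021 genes tested in JVM2, 29.3% changed (14.1% higher and 15.3% lower). The median log2 fold change was 0.04 over the receptors and 0.00 over all genes. The arms did not overlap in 5 receptors, against 45.1% of all genes tested.

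*CCR7* read 216, 204 and 195 CPM in JVM2-CTRL and 309, 237 and 306 CPM in JVM2-2B17. All 2B17 libraries were higher, replicate 2 by the least, and the rise was 1.38-fold (log2 fold change 0.46 ± 0.0908, SE, adjusted *P* = 0.0021, edgeR). *CXCR3* read 20.3, 16.2 and 19.9 CPM in JVM2-CTRL and 17.9, 14.7 and 16.9 CPM in JVM2-2B17. The arms overlapped, with a 95% interval of the log2 fold change from -0.45 to 0.07 (adjusted *P* = 0.27, edgeR). Of the NK markers, 3 of 6 were listed in JVM2, summing to between 1.79 and 3.15 CPM in JVM2-CTRL and between 1.56 and 3.82 CPM in JVM2-2B17, with *GNLY*, *KLRF1* and *NCAM1* not listed. The only T-cell marker of 9 listed in JVM2, *TRAC*, read between 47 and 52.2 CPM in JVM2-CTRL and between 33.4 and 43 CPM in JVM2-2B17. The myeloid markers summed higher in the 2B17 arm of both lines, between 5.71 and 6.97 CPM in JVM2-CTRL and between 11.8 and 14.6 CPM in JVM2-2B17 (3 of 8 listed), and between 2.19 and 2.61 CPM in MEC1-CTRL and between 4.37 and 4.93 CPM in MEC1-2B17 (4 of 8). Most of each sum was *ITGAM*, at 5.14 and 12 CPM on average in JVM2 and 1.22 and 3.66 CPM in MEC1. The other listed markers differed in direction. *CSF1R* and *CD14* were lower in MEC1-2B17 and *LYZ* was higher, while in JVM2-2B17 *LYZ* was lower and *CSF1R* higher. *CD68*, *MPO*, *S100A8* and *S100A9* were not listed in either line, and the part of these genes in the receptor values was not tested.

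*CXCR5* read 17.8, 16.3 and 14.8 CPM in JVM2-CTRL and 10.2, 7.28 and 8.51 CPM in JVM2-2B17. Every JVM2-2B17 library was lower, and the log2 fold change was -0.90 ± 0.137 (SE, adjusted *P* = 0.00034, edgeR). *BCL9L*, which overlaps it on the opposite strand, had 13.2 ± 1.92 CPM in JVM2-CTRL and 10.2 ± 4.96 CPM in JVM2-2B17 (SD, *n* = 3), a log2 difference of -0.36 ± 0.268 that did not pass (SE, adjusted *P* = 0.35, edgeR), and its part in the *CXCR5* value was not tested.

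*CXCR4* was almost silent in JVM2, with 3, 5 and 3 counts in JVM2-CTRL and 0, 0 and 1 count in JVM2-2B17. A limit of 3 counts corresponds to between 0.29 and 0.359 CPM in these libraries. The ratio of CTRL to 2B17 was 10.4 with a 95% interval from 1.52 to 449 that covers counting error alone, and the gene was left out of the test for its low counts. Without that filter, *CXCR4* also passed (adjusted *P* = 0.037, edgeR), which made 6 receptors changed in JVM2.

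*S1PR1* read 66.8, 64.3 and 60.8 CPM in JVM2-CTRL and 80.3, 67.2 and 84.6 CPM in JVM2-2B17. The lowest 2B17 library lay only just above the highest CTRL library, and the rise of 1.2-fold was near the threshold (log2 fold change 0.27 ± 0.0847, SE, adjusted *P* = 0.032, edgeR). It lost the threshold in 5 of the 6 fits that left out 1 library, with adjusted *P* up to 0.13, and kept it when JVM2-2B17 replicate 2 was left out. *S1PR2* read 9.98, 9.55 and 7.87 CPM in JVM2-CTRL and 10.7, 7.4 and 10.2 CPM in JVM2-2B17. Its arms overlapped, and the 95% interval of the log2 fold change was -0.30 to 0.39 (adjusted *P* = 0.86, edgeR).

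*GPR183* read 121, 126 and 131 CPM in JVM2-CTRL and 187, 197 and 193 CPM in JVM2-2B17. Every JVM2-2B17 library was higher by a wide margin (log2 fold change 0.60 ± 0.0577, SE, adjusted *P* = 7.3e-06, edgeR). *P2RY8* read 197, 176 and 181 CPM in JVM2-CTRL and 159, 139 and 163 CPM in JVM2-2B17. All JVM2-2B17 libraries were lower, and the transcript fell by 0.27 on the log2 scale (SE 0.0722, adjusted *P* = 0.013, edgeR), but its adjusted *P* was 0.067 without JVM2-CTRL replicate 1. Of the 13 other pseudoautosomal genes tested in JVM2, 4 rose and 1 fell, with a median log2 fold change of 0.05.

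**Figure D3:**
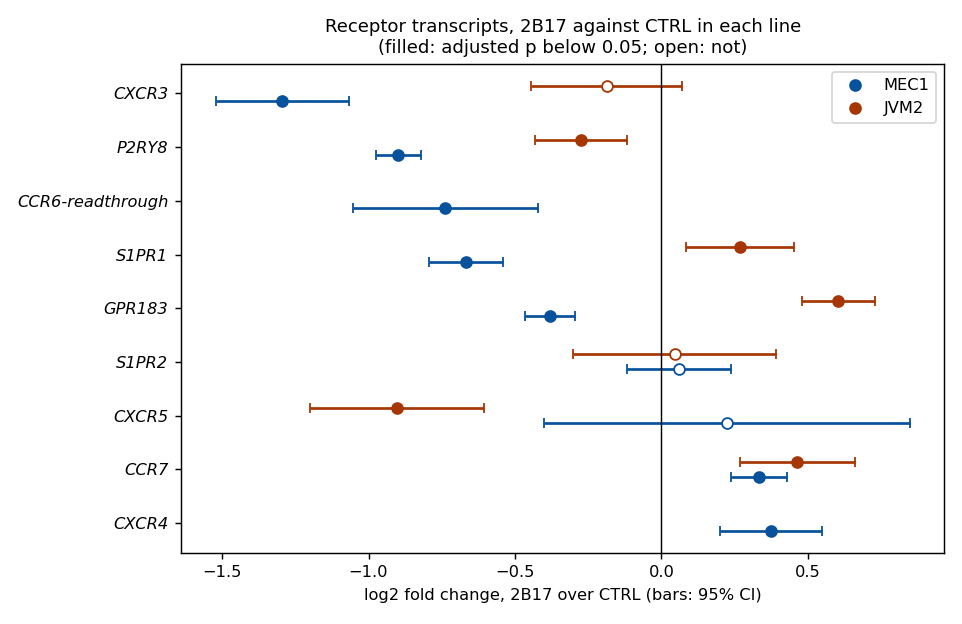
Log2 fold change of 2B17 over CTRL for each receptor gene tested in MEC1 and in JVM2, with 95% confidence intervals. CCR6-readthrough is the gene that spans *CCR6* and its neighbour, and filled points passed an adjusted P of 0.05. *CCR7* lay to the right of 0 and *P2RY8* to the left in both lines, while *GPR183* and *S1PR1* lay on opposite sides.

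Set side by side, 7 receptors were tested in both lines. *CCR7* rose and *P2RY8* fell in both, 2 of 7 with the same direction, where 8.37% of the 12243 genes tested in both lines changed alike. *GPR183* and *S1PR1* fell in MEC1 and rose in JVM2, 2 of 7, where 7.43% of genes changed in opposite directions. The rise of *S1PR1* in JVM2 was near the threshold (adjusted *P* = 0.032, edgeR) and lost it in most fits that left out 1 library. *CXCR3* passed the test in MEC1 alone, *CXCR5* in JVM2 alone, and *S1PR2* in neither line.

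Whether the responses themselves differed was tested with an interaction term in a fit of all 12 libraries, as the MEC1 response minus the JVM2 response. It passed for 6 of 8 receptors, against 32.2% of the 15130 genes tested. *UGT2B17* itself also differed, by 0.46 ± 0.127 on the log2 scale (SE, adjusted *P* = 0.0082, edgeR). The receptor responses were therefore not compared at like differences in *UGT2B17*. The difference for *GPR183* was -0.99 ± 0.0711 on the log2 scale (SE, adjusted *P* = 1.6e-09), and *S1PR1* differed by -0.94 ± 0.107 (adjusted *P* = 1e-06). *P2RY8*, which fell in both lines, fell more in MEC1, by -0.63 ± 0.0823 (adjusted *P* = 5.6e-06), and *CXCR3* by -1.12 ± 0.171 (adjusted *P* = 4.2e-05). *CXCR5* differed by 1.12 ± 0.34 (adjusted *P* = 0.016), and lost the threshold without MEC1-CTRL replicate 3 (adjusted *P* = 0.05) or MEC1-2B17 replicate 1 (adjusted *P* = 0.096). *CXCR4* passed at 3.58 ± 1.26 (adjusted *P* = 0.035), a value that rests on the near-zero JVM2 counts and is no measured size. It lost the threshold without any of the JVM2-CTRL libraries or without JVM2-2B17 replicate 1 or 2, with adjusted *P* between 0.052 and 0.11, and it was 0.054 with the replicate number as a block.

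The rise of *CCR7* was not shown to differ between the lines, with a 95% interval of the difference from -0.36 to 0.09 on the log2 scale (adjusted *P* = 0.36). Without JVM2-2B17 replicate 2, where *CCR7* was lowest, the difference passed at -0.24 (adjusted *P* = 0.012). For *S1PR2* the interval was -0.36 to 0.38 (adjusted *P* = 0.98).

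At baseline, JVM2-CTRL was compared with MEC1-CTRL. JVM2-CTRL held more *CXCR5*, *CCR7*, *S1PR1*, *P2RY8* and *CXCR3*, and less *CXCR4* and *GPR183*. Thus 7 of 8 receptors differed, 5 higher and 2 lower in JVM2, beside 78.4% of all 15130 genes (38.5% higher and 39.8% lower). The contrasts in *CXCR5* and *CXCR4* were the widest and ran in opposite directions. *CXCR5* averaged 16.3 CPM in JVM2-CTRL and 0.519 CPM in MEC1-CTRL, a log2 difference of 4.94 ± 0.189 (SE, adjusted *P* = 2.2e-15, edgeR). *BCL9L*, on the opposite strand, was also higher in JVM2-CTRL, by 2.94 ± 0.25 (SE, adjusted *P* = 1.2e-09, edgeR). *CXCR4* averaged 0.382 CPM in JVM2-CTRL and 18.7 CPM in MEC1-CTRL, a log2 difference of -5.58 ± 0.261 (SE, adjusted *P* = 6.2e-14, edgeR). That size rests on 3, 5 and 3 counts in JVM2-CTRL. The gene reached the count minimum of this fit only through the MEC1 libraries, so the filter tied it to a lower value in JVM2.

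*CCR7* was 4.18-fold higher in JVM2-CTRL than in MEC1-CTRL (205 and 49.1 CPM) and *S1PR1* 2.46-fold higher (64.0 and 26.1 CPM). *P2RY8* was 1.98-fold higher (185 and 93.2 CPM) and *CXCR3* 1.72-fold higher (18.8 and 10.9 CPM), and *GPR183* was 1.93-fold lower (126 and 243 CPM). For these 5 receptors the adjusted *P* ran from 2.4e-15 to 2.6e-06 (edgeR). *S1PR2* stood at 9.14 CPM in JVM2-CTRL and 9.01 CPM in MEC1-CTRL, with a 95% interval of the log2 difference from -0.24 to 0.29 (adjusted *P* = 0.85, edgeR). The MEC1-CTRL population carried a knock-down and the JVM2-CTRL population an empty vector, and *UGT2B17* was 2.83-fold higher in JVM2-CTRL. Line, control construct and *UGT2B17* level thus cannot be told apart.

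**Figure D4:**
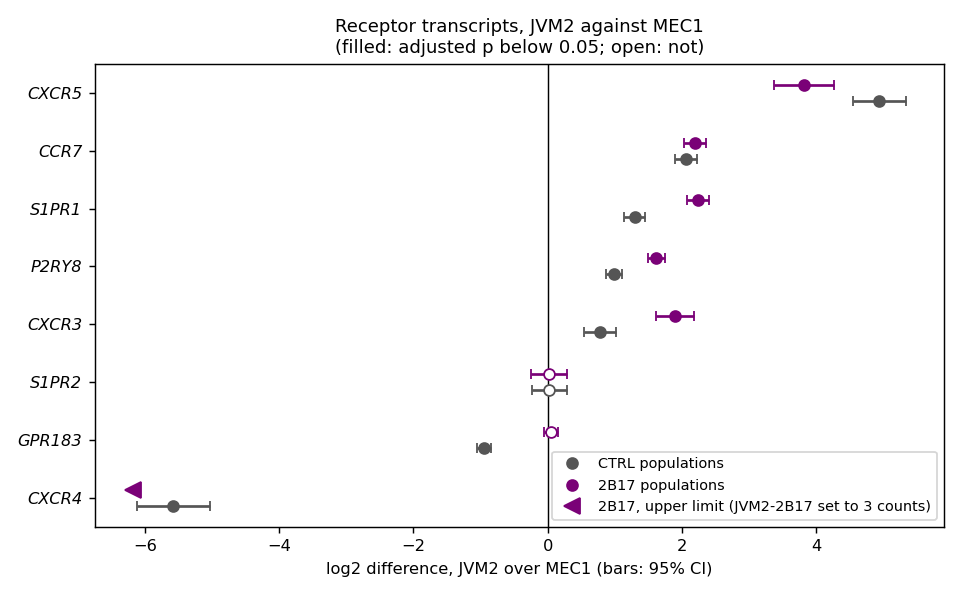
Log2 difference of JVM2 over MEC1 for 8 receptors, among the CTRL populations (grey) and among the 2B17 populations (purple), with 95% confidence intervals. Filled points passed an adjusted P of 0.05, and the triangle is a limit with JVM2-2B17 set to 3 counts per library. *GPR183* differed between the CTRL populations at -0.95 and lay at 0.04 between the 2B17 populations.

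The 2B17 populations carried the same construct in both lines, with *UGT2B17* 2.06-fold higher in JVM2-2B17 than in MEC1-2B17. Between them, 6 of 8 receptors differed, 5 higher and 1 lower in JVM2, beside 77.0% of all genes (38.5% higher and 38.6% lower). *S1PR1* was 4.72-fold higher in JVM2-2B17 than in MEC1-2B17 (77.4 and 16.4 CPM), *CCR7* 4.59-fold (284 and 61.9 CPM), *CXCR3* 3.73-fold (16.5 and 4.43 CPM) and *P2RY8* 3.07-fold (154 and 50.0 CPM). *CXCR5* was 14.1-fold higher (8.67 and 0.611 CPM). *CXCR4* was at least 72.1-fold lower in JVM2-2B17 than in MEC1-2B17, with each JVM2-2B17 library set to 3 counts.

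*GPR183*, which fell in MEC1 and rose in JVM2, ended at 187 ± 2.37 CPM in MEC1-2B17 and 192 ± 4.73 CPM in JVM2-2B17 (SD, *n* = 3). These ranges overlapped, and the 95% interval of the log2 difference ran from -0.06 to 0.15 (adjusted *P* = 0.45, edgeR). The scale between the lines matters here. With library size alone, the median of all genes moved by -0.17 on the log2 scale, and *GPR183* was lower in JVM2-2B17 by -0.13 (adjusted *P* = 0.027). Relative to that shift it was again close to 0. *S1PR2* differed by 0.02 (95% interval -0.25 to 0.28, adjusted *P* = 0.9, edgeR), and *S1PR2* passed none of the 5 tests made.

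The genes around each receptor, within 1 Mb, were read from the same fits to see whether a receptor moved with its neighbourhood. Over all genes tested, 20% were higher and 21.6% lower in MEC1-2B17, and 14.1% were higher and 15.3% lower in JVM2-2B17. Around *P2RY8*, 7 of 11 genes tested fell and 1 rose in MEC1, with a median log2 fold change of -0.33, against 1 lower and 3 higher of 8 in JVM2. Around *GPR183*, 5 rose and 7 fell of 15 in MEC1 (median -0.09) and 3 rose and 1 fell of 9 in JVM2 (median 0.28). Around *S1PR1*, 4 rose and 4 fell of 14 in MEC1 (median -0.04) and 3 of 9 rose in JVM2 (median 0.20). Around *CXCR3*, 7 of 19 rose and none fell in MEC1, opposite to the receptor, and around *CXCR5*, 5 rose and 8 fell of 32 in JVM2 (median -0.03).

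**Figure D5:**
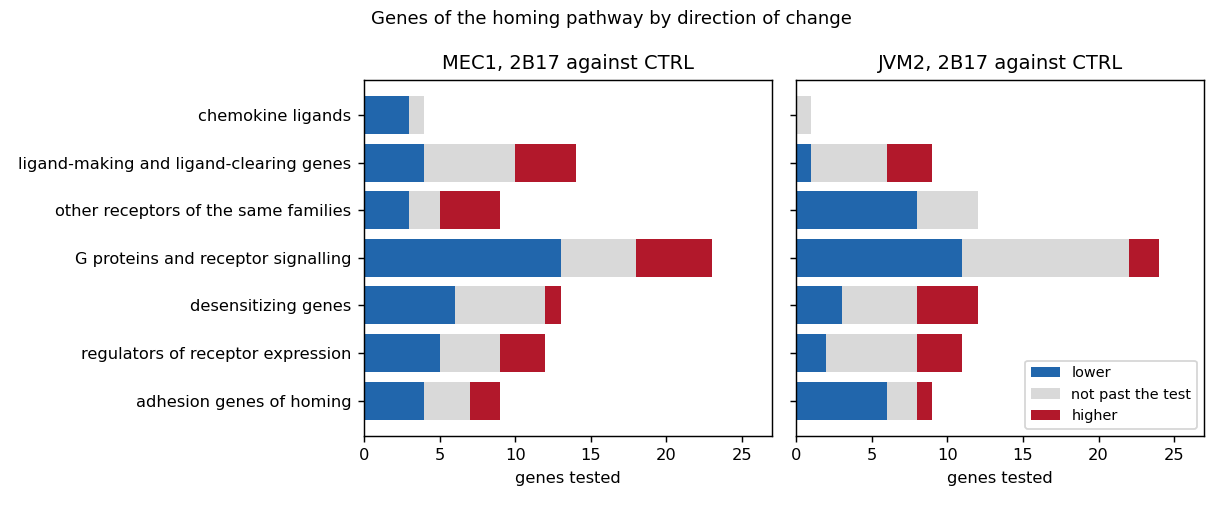
Genes of 7 lists around the receptors, tested in 2B17 against CTRL in MEC1 (left) and JVM2 (right). Bars count genes that were lower, not past the test, or higher at an adjusted P below 0.05. In JVM2, 8 of 12 other receptors were lower and none higher, beside 15.3% lower and 14.1% higher of all genes tested. In MEC1, 13 of 23 G protein and signalling genes were lower, beside 21.6% of all genes tested.

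The wider homing machinery was read from 7 lists of 116 genes in all. Of 84 genes tested in MEC1, 19 rose and 38 fell (67.9% changed, beside 41.7% of all genes), and the median was -0.10 on the log2 scale. Of 78 tested in JVM2, 13 rose and 31 fell (56.4%, beside 29.3%), with a median of -0.13. The counts of each list below stand beside shares over all genes tested. These were 20.0% higher and 21.6% lower in MEC1, and 14.1% higher and 15.3% lower in JVM2.

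Among chemokine ligands, 3 of 4 genes tested fell in MEC1 and 1 was tested in JVM2, where it did not pass. The 3 that fell reached the count minimum only through MEC1-CTRL, so the filter tied them to a fall. *CXCL10*, a ligand of CXCR3, had 176, 133 and 176 counts in MEC1-CTRL and 14, 5 and 9 counts in MEC1-2B17, a fall of 15.9-fold (adjusted *P* = 8.4e-11, edgeR). It was too scarce to be tested in JVM2 alone, with 8, 9 and 14 counts in JVM2-CTRL. The difference between the responses of the lines did not pass the test in the joint fit (log2 difference -0.20 ± 1.89, SE, adjusted *P* = 0.95, edgeR). With an error so wide, whether the responses were alike cannot be told.

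Of the genes that make or clear ligands, 4 rose and 4 fell of 14 in MEC1, and 3 rose and 1 fell of 9 in JVM2. *DPP4* (CD26), a peptidase that clips CXCL12 and CXCL10, rose in both lines, by 1.46-fold in MEC1 and 2.38-fold in JVM2. *ACKR3*, a scavenging receptor for CXCL12, rose by 1.57-fold in MEC1, to 60.3 CPM. *SGPP1*, a sphingosine 1-phosphate phosphatase, fell by 1.25-fold in MEC1. In JVM2 the phosphatases *PLPP3* and *SGPP2* rose by 2.17-fold and 1.2-fold, and *SGPP2* fell by 1.17-fold in MEC1, the responses differing (log2 difference -0.50 ± 0.0946, SE, adjusted *P* = 0.00041, edgeR).

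Of other receptors from the same families, 4 rose and 3 fell of 9 in MEC1, and 8 of 12 fell and none rose in JVM2. In MEC1, *GPR132* and *CCR10* rose by 1.35-fold each and *CCRL2* fell by 1.55-fold. *GPR132* fell by 1.37-fold in JVM2 (adjusted *P* = 0.00043), and the responses of the lines differed for it (log2 difference 0.88 ± 0.0862, SE, adjusted *P* = 1.2e-07, edgeR) and for *CCR10* (0.70 ± 0.149, adjusted *P* = 0.0012). In JVM2, *CCR1*, which also fell in MEC1, fell by 3.39-fold and *CXCR2* by 5.96-fold. *CCR2* had 58, 46 and 66 counts in JVM2-CTRL and 3, 0 and 1 count in JVM2-2B17. It was at least 17.9-fold lower with each JVM2-2B17 library set to 3 counts. Some of these genes, among them *CCR2* and *CXCR2* in JVM2 and *CCR1* in MEC1, reached the count minimum only through the CTRL libraries. The filter tied those genes to a fall.

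Of the G proteins and signalling genes below the receptors, 5 rose and 13 fell of 23 in MEC1, and 2 rose and 11 fell of 24 in JVM2. *PIK3CG*, the PI3-kinase subunit driven by G proteins, fell in both lines, by 1.56-fold in MEC1 and 1.88-fold in JVM2. *RASGRP2*, which activates RAP1 and integrins, rose in both, by 1.48-fold and 2.05-fold. *PIK3R5*, the regulatory partner of *PIK3CG*, rose by 1.99-fold in MEC1 and fell by 1.6-fold in JVM2 (adjusted *P* = 3.1e-05), and the responses differed (log2 difference 1.66 ± 0.0852, SE, adjusted *P* = 1e-11, edgeR). *GNG2*, a G protein gamma subunit, fell by 1.6-fold in JVM2 and 1.26-fold in MEC1.

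Of the genes that desensitize receptors, 1 rose and 6 fell of 13 in MEC1, and 4 rose and 3 fell of 12 in JVM2. *RGS3*, which speeds the shut-off of G proteins, fell by 1.89-fold in MEC1 (58.8 to 31.1 CPM) and rose by 1.27-fold in JVM2 (86.5 to 111 CPM), and the responses differed (log2 difference -1.27 ± 0.0744, SE, adjusted *P* = 6.1e-11, edgeR). In MEC1, *RGS2* fell by 1.85-fold and *RGS19* by 1.29-fold. In JVM2, *RGS1*, a strong brake on B-cell chemotaxis, rose by 1.58-fold to 173 CPM, whereas in MEC1 it fell by 1.28-fold (adjusted *P* = 8.8e-05), and the responses differed (log2 difference -1.02 ± 0.106, SE, adjusted *P* = 2.8e-07, edgeR). *GRK2*, a kinase that desensitizes S1PR1 among others, fell by 1.34-fold in JVM2.

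Of the regulators of receptor expression, 3 rose and 5 fell of 12 in MEC1, and 3 rose and 2 fell of 11 in JVM2. *CD69*, which pulls the S1PR1 protein from the surface, moved in the same directions as the *S1PR1* transcript. It fell by 1.66-fold in MEC1 (93.8 to 56.7 CPM) and rose by 1.39-fold in JVM2 (32.3 to 45.3 CPM), and the responses differed by -1.21 ± 0.12 on the log2 scale (SE, adjusted *P* = 1.6e-07, edgeR). *POU2F2*, which encodes OCT2, fell by 1.33-fold in MEC1 (adjusted *P* = 7.3e-07, edgeR). In JVM2 its fall of 1.36-fold was near the threshold (adjusted *P* = 0.048, edgeR) and leaned on replicate 2. The JVM2-2B17 libraries held 542, 266 and 480 counts, against 570, 661 and 601 in JVM2-CTRL. *BCL6* fell by 1.96-fold in MEC1, and *HIF1A* fell by 1.14-fold in JVM2. *KLF2*, an activator of *S1PR1*, stood just under the level set for naming a gene and was picked out after its values were seen. It had 8, 10 and 10 counts in JVM2-CTRL and 35, 26 and 17 counts in JVM2-2B17. This was a rise of 1.53 ± 0.295 on the log2 scale (SE, adjusted *P* = 0.0019, edgeR). In MEC1 its log2 fold change was 0.19 ± 0.151 (SE, adjusted *P* = 0.35). Between the CTRL populations, *KLF2* was 2.08-fold lower in JVM2 (adjusted *P* = 0.0014, edgeR), while *S1PR1* was 2.46-fold higher. *KLF3*, also under that level, rose by 6.47-fold in JVM2 (adjusted *P* = 0.0017, edgeR), from 1, 1 and 4 counts in JVM2-CTRL. Both *KLF2* and *KLF3* reached the count minimum in JVM2 only through the 2B17 libraries, so the filter tied them to a rise.

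Of the adhesion genes of homing, 2 rose and 4 fell of 9 in MEC1, and 1 rose and 6 fell of 9 in JVM2. In MEC1, *ITGB7* fell by 1.76-fold and *ITGAL* by 1.89-fold, while *SELPLG*, the P-selectin ligand, rose by 2.79-fold. *SELPLG* fell by 1.21-fold in JVM2 (adjusted *P* = 0.038), and the responses differed (log2 difference 1.75 ± 0.14, SE, adjusted *P* = 7.7e-09, edgeR). In JVM2, *ITGA4* fell by 1.84-fold, while *ITGB2* rose by 1.70-fold.

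The genes whose levels across the 4 populations ran nearest to each receptor were taken from 12052 genes, by the root mean square difference of centred log2 CPM. For *GPR183* these were *CTB-58E17.1* (0.0338), *ID2* (0.0364) and *AP006621.5* (0.0385). For *S1PR1* they were *ABHD4* (0.0539), *GFI1* (0.0642) and *ASMTL* (0.0674), and for *CCR7* they were *ZNF350* (0.0469), *HIST1H3E* (0.0635) and *FAM64A* (0.0713). For *P2RY8* they were *NRG2* (0.0453), *HMOX1* (0.0494) and *ITGAL* (0.0939), the last an integrin gene of the adhesion list. For *CXCR3* they were *CACNB4* (0.083), *WNT10A* (0.0894) and *SLC30A4* (0.0995). For *CXCR5* they were *ABTB2* (0.147), *ARHGAP42* (0.221) and *RNA28S5* (0.262), and for *CXCR4* they were *CNR2* (0.32), *CBS* (0.354) and *ZBTB10* (0.37), which lay further off. *S1PR2*, flat across the populations, had *OSBPL7*, *LEPROTL1* and *NOL11* within 0.00762. These are likenesses over 4 means, and say nothing of shared function.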

How the data were processed

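RNA from 3 biological replicates of each of 4 populations was sequenced by the authors with paired ends after removal of ribosomal RNA. Per the labels, the reads were trimmed with Trimmomatic, aligned to hg38 with TopHat2 2.0.14 and counted with HTSeq, and the authors deposited raw counts per Ensembl gene, without normalization, in 1 table per line. The annotation release was not given in the sources used here. Genes with fewer than 10 counts over the 6 libraries of a line were not listed. The 12 columns of normalized values, and 12 columns of the authors' own comparisons (log2 fold changes, log CPM, p-values and adjusted p-values), were not used.

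Counts were tested in R 4.3.3 with edgeR 4.0.16 (TMM, filterByExpr, quasi-likelihood F-test), per line, with library sizes from the whole table. Differences between lines, and the interaction, came from a fit of all 12 libraries over genes in both tables (15130 tested). *P*-values were adjusted by Benjamini-Hochberg over all genes tested, with a threshold of 0.05. Standard errors were derived from the F statistic. Exact two-sided permutation of 3 against 3 libraries cannot go below 0.1, so no such *P* is given. Printed CPM use the TMM factors of the 12-library fit, and the depth of JVM2 widens its intervals. Floors and count intervals cover counting error only. Symbols were matched by Ensembl identifier, and 21798 MEC1 and 16799 JVM2 identifiers were in GENCODE release 44. Replicate numbers were not used as pairs in the main fits. The members and lists were chosen with earlier results of these data known. Named genes were the receptors, *UGT2B17*, up to 3 changed genes of each list and line with the largest fold change (average log2 CPM 1 or more), and the 3 nearest genes of each receptor. A gene that this rule names in the adhesion list is not reported here. The scripts were tested on simulated data. Alternatives were DESeq2 1.42.0, both tools together, RLE scaling, library size alone, other count filters, the replicate block and leaving out each library.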

Additional observations from a re-analysis of the deposited data

Results flagged for a closer look

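The 6 receptors whose response to high UGT2B17 differed between the lines, by the interaction term in edgeR, are given here as the MEC1 response minus the JVM2 response on the log2 scale. The difference was -0.99 for *GPR183* and -0.94 for *S1PR1*, both of which fell in MEC1 and rose in JVM2, the rise of *S1PR1* being near the threshold. It was -0.63 for *P2RY8* and -1.12 for *CXCR3*, both with the lower value in MEC1. It was 1.12 for *CXCR5*, which fell in JVM2 and had 11 to 29 counts per library in MEC1. It was 3.58 for *CXCR4*, where JVM2 held at most 5 counts per library, and this value has no measured size. *UGT2B17* itself differed between the arms by 1.92-fold in MEC1 and by 1.39-fold in JVM2. The MEC1 arms also differed in the kind of construct and in antibiotic, while the JVM2 arms shared vector and antibiotic. The parts of these and of the unequal *UGT2B17* difference cannot be told apart from that of the line.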

How the results depend on the processing

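Of 677 log2 differences recomputed for the receptors under the alternatives, 638 kept direction and side of the threshold, 23 passed in neither fit and changed sign (of *S1PR2*, *CXCR5* or *GPR183*), 14 lost the threshold, 1 gained it and 1 reversed. The reversed value was *GPR183* between JVM2-2B17 and MEC1-2B17 with library size alone, at -0.13 (adjusted *P* = 0.027), where the scaling itself moved the median of all genes. Receptors changed numbered 7 in MEC1 under every alternative, and 5 to 6 in JVM2 under the alternatives other than leaving out a library. Leaving out 1 library gave 3 to 5 in JVM2, with 3 without JVM2-CTRL replicate 1, since *P2RY8* (adjusted *P* = 0.067) and *S1PR1* (adjusted *P* = 0.05) then missed the threshold. Between the lines, the count was 6 to 7 for the CTRL populations, 5 to 7 for the 2B17 populations and 5 to 6 for the interaction. Correlations of same-numbered deviations ran from -0.0422 to 0.04 in MEC1 and from -0.00594 to 0.117 in JVM2. With 3 replicates per arm, they cannot settle whether samples of the same number were paired. With the replicate block, 6897 genes changed in MEC1 and 4236 in JVM2, and 7 and 5 receptors, and 5 receptors differed in response, *CXCR4* being lost at 3.55 (adjusted *P* = 0.054). With the longest transcript as length, 5 ranks of the receptors changed in MEC1-CTRL and 2 in JVM2-2B17. Neither *CXCR4* in JVM2 alone nor *CCR6* in MEC1 reached the count minimum for a test.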

Other observations

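The summed level of 6 plasma-cell markers was higher in MEC1-2B17 and lower in JVM2-2B17 than in the CTRL population, but single markers differed in direction. *PRDM1*, which encodes the plasma cell regulator BLIMP1, was lower in both. The markers summed to between 1930 and 1960 CPM in MEC1-CTRL and between 3040 and 3120 CPM in MEC1-2B17. In JVM2 the sum was between 4240 and 4340 CPM in JVM2-CTRL and between 3630 and 3820 CPM in JVM2-2B17. In MEC1 the difference was mostly *IRF4* (1110 and 2260 CPM), and *SDC1* and *MZB1* were also higher in MEC1-2B17. *JCHAIN* was lower there (275 CPM in MEC1-CTRL and 142 CPM in MEC1-2B17), and *XBP1* was level (348 and 350 CPM). *PRDM1* averaged 2.31 CPM in MEC1-CTRL and 0.837 CPM in MEC1-2B17. In JVM2, *PRDM1* averaged 99.2 and 33.2 CPM, and all the other markers but *IRF4* (2060 and 2150 CPM) were lower in JVM2-2B17. These are sums and means with no test.

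Other pseudoautosomal genes of JVM2 stood apart from *P2RY8*: *IL3RA* and *CRLF2*, cytokine receptor genes near it, rose in JVM2 with log2 fold changes of 2.08 ± 0.225 and 1.80 ± 0.166 (SE, edgeR), while *P2RY8* fell by 0.27. In MEC1 their log2 fold changes were 0.35 ± 0.0624 and -0.40 ± 0.177.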
